A study of Mus musculus with 2 samples.

Results

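A set of 8 genes of plasma cells and of antibody assembly and secretion was examined, chosen by name, as the rows of the deposited expression table whose gene name was Prdm1, Xbp1, Jchain, Mzb1, Derl3, Tnfrsf17, Tnfrsf13b or Sdc1. All 8 were found among the 54532 genes of the table, each in 1 row and each annotated as protein-coding. The study compared aortic macrophages of male ApoE-/- mice on a C57BL/6J background, a strain prone to high blood lipids and atherosclerosis, in models of 2 syndromes of traditional Chinese medicine. Cells of the digested aorta were sorted by flow cytometry on F4/80 and CD11b, those from 5 mice of a group were combined, and their RNA was sequenced as 1 library for each of PDR and SKYD, the names used below.

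The mice were 6 weeks old at the start. Mice of the Phlegm-Dampness Retention (PDR) group received high-fat chow over 4 weeks. Mice of the Spleen and Kidney Yang Deficiency (SKYD) group were given propylthiouracil, a drug that blocks the synthesis of thyroid hormone, by gavage at 10 mg/kg per day for 4 weeks and then a high-fat diet for 2 weeks. The groups therefore differed in drug, in the length of the diet and in age at sampling, which cannot be told apart here, and no library of untreated mice was used. With 1 pooled library in each group there was no replicate check of any difference below and no test was made. Whole reads recovered from the FPKM (fragments per kilobase of gene, scaled to the depth of the library) summed to 23086889 in PDR and 25427863 in SKYD. Intervals are 95% intervals of the reads and cover counting error only.

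Plasma cells are the end stage of B cell differentiation and secrete antibody at high rates. The factor Blimp-1, encoded by Prdm1, shuts down genes of the B cell state, and Xbp1 then enlarges the endoplasmic reticulum (ER), where immunoglobulin chains are folded, joined and checked before export. Several of these genes are not particular to plasma cells: Xbp1 acts in many secretory cells, Mzb1 is also found in marginal zone B cells, B-1 cells and plasmacytoid dendritic cells, and Tnfrsf13b is carried by B cells.

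Of the 8 members, 7 had a mean of at least 1 FPKM over the libraries, and each of these 7 was also above 1 FPKM in either library taken alone. Prdm1 was below that level. On the scale of log2(FPKM + 1), 4 of the 7 (Mzb1, Tnfrsf17, Derl3 and Tnfrsf13b) were more than 2-fold higher in PDR, against 767 of 10399 genes (7.38%) with a mean of at least 1 FPKM. None of the 7 was more than 2-fold higher in SKYD, against 719 of 10399 genes (6.91%). These shares of all tested genes stand beside the counts of each list below as well. The median difference, PDR minus SKYD, was 1.17 over the 7 members and 1.06 over all 8, and it was -0.00349 over the 10399 genes. In bulk RNA, fewer cells of a type and less RNA per cell cannot be told apart.

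The members covered a wide range of levels. In PDR the order by FPKM was Jchain, Mzb1, Xbp1, Tnfrsf13b, Derl3, Tnfrsf17, Sdc1 and Prdm1. In SKYD Xbp1 stood above Mzb1, and the order was otherwise the same. Tnfrsf17 at 4.76 FPKM (interval 3.86 to 5.81) and Sdc1 at 4.65 FPKM (4.23 to 5.11) were not distinguishable in level in SKYD, and neighbours elsewhere in both orders had intervals that did not overlap, except Derl3 and Tnfrsf17, which overlapped in both libraries. Jchain alone held 79.8% of the members' reads in PDR and 87.4% in SKYD.

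**Figure D1:**
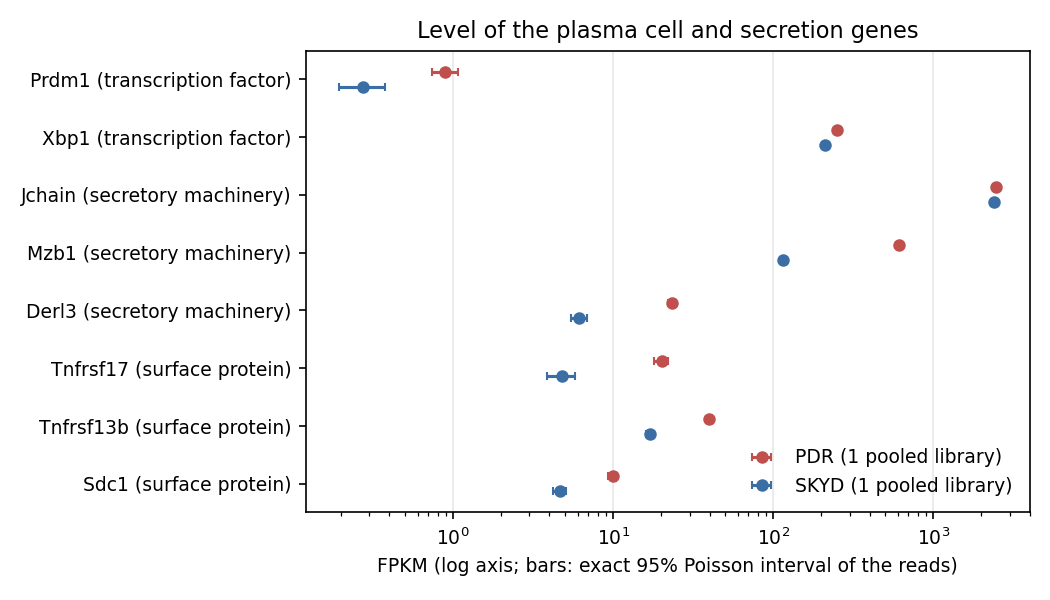
FPKM of each member (log axis) in PDR (red) and SKYD (blue), each 1 pooled library, with the exact 95% Poisson interval of its reads. Jchain lies at 2483 and 2403 FPKM, and the points of Mzb1, Derl3 and Tnfrsf17 lie farthest apart among the members above 1 FPKM.

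Prdm1 encodes Blimp-1, the repressor that directs the change from B cell to plasma cell (ENSMUSG00000038151, chromosome 10 from 44437177 to 44528501, GRCm38). Its level was 0.893 FPKM from 117 reads in PDR and 0.273 FPKM from 38 reads in SKYD. The ratio of FPKM was 3.28 (interval 2.25 to 4.86), but at so low a level the difference on the log2(FPKM + 1) scale was 0.57. It was the least abundant of the 8 members in each library.

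Xbp1, the factor that expands the secretory apparatus (ENSMUSG00000020484, chromosome 11 from 5520659 to 5525893), was at 249.8 FPKM in PDR and 211 FPKM in SKYD. The ratio was 1.18 (interval 1.16 to 1.21), and the log2(FPKM + 1) difference of 0.24 lay well inside 2-fold. Activity of Xbp1 depends on a splicing step in the cytoplasm, which a value per gene does not show. By rank among protein-coding genes it was number 258 in PDR and 332 in SKYD.

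Among 8 other regulators of the plasma cell fate, 5 had a mean of at least 1 FPKM, of which 2 passed 2-fold with PDR higher and 0 with SKYD higher. Pou2af1, a coactivator needed for germinal centres, was at 57.4 FPKM in PDR and 11.4 FPKM in SKYD. Ikzf3, which encodes Aiolos, was at 7.50 and 1.84 FPKM in the same order, and the related Ikzf1 was higher in SKYD, at 2.43 and 3.56 FPKM. Irf4, the partner of Blimp-1 in plasma cell differentiation, was at 2.11 FPKM in PDR and 1.66 FPKM in SKYD and is named here after its values were seen. The median log2(FPKM + 1) difference of the 5 was 0.74, and it was 0.31 with no filter, 2.23 at a mean FPKM of at least 5, where Pou2af1 alone remained, and 1.11 and 1.17 with pseudocounts of 0.1 and 0.01.

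Genes that B cells switch off on becoming plasma cells were present as well. Of 9 such genes, 5 had a mean of at least 1 FPKM, with 3 more than 2-fold higher in PDR and 0 in SKYD, and their median difference was 1.22, which was 0.46 with no filter and 2.08 at a mean FPKM of at least 5, where 3 genes remained. Cxcr5, the receptor that guides B cells into follicles, was at 18.1 FPKM in PDR and 3.52 FPKM in SKYD. Id3 went the other way, with 44.3 FPKM in PDR and 64.1 FPKM in SKYD. So did Bcl6, named after its values were seen and below 1 FPKM in mean, with 33 reads in PDR and 117 in SKYD.

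Jchain encodes the joining chain of IgM pentamers and IgA dimers (ENSMUSG00000067149, chromosome 5 from 88519809 to 88527891). Its level was 2483 FPKM from 146804 reads in PDR and 2403 FPKM from 151143 reads in SKYD. The ratio was 1.03 (interval 1.03 to 1.04), a small difference that was nonetheless past counting error. As a share of the reads Jchain held 0.636% in PDR and 0.594% in SKYD. The log2(FPKM + 1) difference was 0.05 and stayed between 0.05 and 0.17 under the 6 other scalings and pseudocounts tried. It ranked number 21 among protein-coding genes in PDR and 27 in SKYD.

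The heavy chains that the joining chain binds differed little between the libraries, and the IgG chains differed far more. Ighm, the heavy chain of IgM, was at 3689 FPKM in PDR and 2917 FPKM in SKYD, a log2(FPKM + 1) difference of 0.34. Igha, the heavy chain of IgA, was at 443 and 507 FPKM, a difference of -0.19. By contrast, Ighg2b was at 6154 FPKM in PDR and 542 FPKM in SKYD, a ratio of 11.3, and Ighg2c was at 2390 and 97.1 FPKM, a ratio of 24.6. Igha, Ighd, Ighg3 and the sums over genes were chosen after their values were seen.

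Set against these chains, Jchain stood at 0.601 of the summed FPKM of Ighm and Igha in PDR and at 0.702 in SKYD. Against the summed FPKM of Ighg1, Ighg2b, Ighg2c and Ighg3 it stood at 0.279 in PDR and at 3.52 in SKYD, so that this ratio was 12.6 times as high in SKYD. Igkc, the constant region of the kappa light chain, was at 55958 FPKM in PDR and 25888 FPKM in SKYD. Of 12 immunoglobulin constant genes, 11 had a mean of at least 1 FPKM, and 8 of these were more than 2-fold higher in PDR, with a median log2(FPKM + 1) difference of 1.84.

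**Figure D2:**
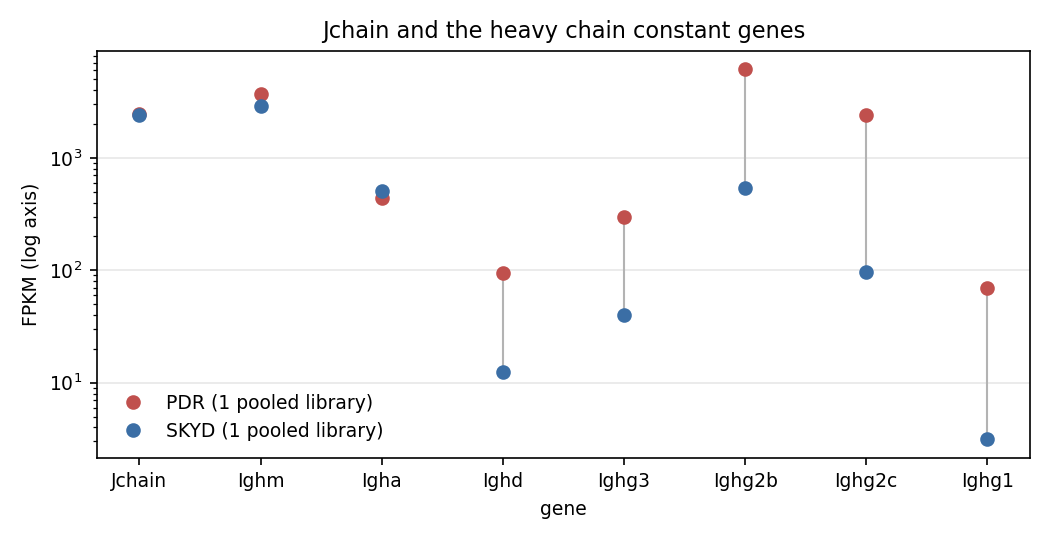
FPKM (log axis) of Jchain and of the heavy chain constant genes in PDR (red) and SKYD (blue), each 1 pooled library, with a grey line joining the values of a gene. Jchain, Ighm and Igha have nearly the same level in both libraries, while Ighd and the 4 IgG genes lie far higher in PDR.

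The receptors for IgM and IgA gave few reads apart from Fcmr, the IgM receptor of B cells, which was at 91.4 FPKM in PDR and 18.6 FPKM in SKYD. Pigr, which carries polymeric antibody across epithelia by its joining chain, was at 1.53 FPKM from 145 reads in PDR and 0.268 FPKM from 27 reads in SKYD. Fcamr had 5 reads in SKYD and 0 in PDR, where 0 reads allow up to 1.30e-05% of the reads.

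Derl3 encodes a derlin, a membrane protein that helps to move misfolded proteins out of the ER for degradation and is made under ER stress (ENSMUSG00000009092, chromosome 10 from 75893413 to 75895941). It was at 23.3 FPKM from 1092 reads in PDR and 6.14 FPKM from 306 reads in SKYD. The ratio was 3.80 (interval 3.34 to 4.32) and the log2(FPKM + 1) difference 1.77. The related Derl1 was at 58.8 FPKM in PDR and 56.1 FPKM in SKYD, a log2(FPKM + 1) difference of 0.06. Measured against the summed FPKM of Derl1 and Derl2, the latter named after its values were seen, Derl3 stood at 0.306 in PDR and 0.0883 in SKYD.

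Since genes of the unfolded protein response share short promoter elements, RefSeq promoters (GRCm38.p6, 250 bases before to 50 after the start) were searched on both strands for the ER stress response element, CCAAT and CCACG with 9 bases between, and for the unfolded protein response element TGACGTGG. Of the 8 members, 7 had a promoter in the table, Mzb1 being the exception. The first element was found in Derl3 alone among the 7, and in 39 of 32851 promoters (0.119%). The second was in none of the 7 and in 222 promoters (0.676%). The 250 bases upstream of the Derl3 start are shown because they hold the element (chr10:75893148-75893397, plus strand), with capitals for the complement of its ends, since it reads on the minus strand.
Derl3 promoter: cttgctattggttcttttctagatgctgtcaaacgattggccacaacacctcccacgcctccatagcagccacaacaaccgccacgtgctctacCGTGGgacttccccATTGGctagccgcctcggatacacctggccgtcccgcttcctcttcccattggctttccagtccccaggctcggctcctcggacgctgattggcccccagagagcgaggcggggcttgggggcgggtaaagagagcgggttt

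The same element stood in 8 of the 45 genes with a promoter in the table among 3 lists of ER genes (folding and the unfolded protein response, degradation, and translocation and export). It is shown for Derl3 and for 4 of these, which include the chaperone Hspa5 and the ubiquitin ligase Syvn1 and were chosen as those with the highest difference, with the ends in capitals and each read on the strand that carries it. The Derl3 element lies at chr10:75893242-75893260, that of Syvn1 at chr19:6046532-6046550, that of Creld2 at chr15:88819520-88819538, that of Hspa5 at chr2:34772025-34772043 and that of Hsp90b1 nearest its start at chr10:86705533-86705551.
Derl3: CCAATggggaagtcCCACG
Syvn1: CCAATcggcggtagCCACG
Creld2: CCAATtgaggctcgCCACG
Hspa5: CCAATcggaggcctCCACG
Hsp90b1: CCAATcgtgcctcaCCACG
A match is a match of letters only. Log2(FPKM + 1) differences of the 8 ran from -0.26 for Canx to 1.04 for Syvn1, with a median of 0.29, and only Syvn1 was past 2-fold, while Derl3 had 1.77.

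The wider machinery of the ER differed less than Derl3. Among genes of ER folding and the unfolded protein response, 23 had a mean of at least 1 FPKM. Of these, 2 passed 2-fold with PDR higher and 0 with SKYD higher, against 7.38% and 6.91% of all tested genes. The count higher in PDR was thus near the share of all genes. The median log2(FPKM + 1) difference of the 23 was 0.25. It was 0.10 at a mean FPKM of at least 5 and 0.38 with scaling on reads outside immunoglobulin genes. Hspa5, the main chaperone of the ER lumen, was at 250.1 FPKM in PDR and 179 FPKM in SKYD. Of the 23, 9 were higher in SKYD, among them Sdf2l1, the highest in mean FPKM, at 222 and 314 FPKM, and Pdia3 at 207 and 219 FPKM, whose log2(FPKM + 1) difference of -0.08 was smaller than the 0.11 by which scaling on reads outside immunoglobulin genes moved the median of all genes. Past 2-fold were Ero1lb, an oxidase that forms disulphide bonds, at 7.39 and 2.04 FPKM, and Txndc11 at 7.91 and 2.69 FPKM.

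For ER-associated degradation, the pathway of the derlins, 1 of 13 genes (Syvn1, at 8.12 and 3.45 FPKM) was more than 2-fold higher in PDR and 0 in SKYD. The count higher in PDR was again near the 7.38% of all tested genes. The median difference of the 13 was 0.30. Of 22 genes of the translocon, signal peptidase and ER export, 0 were past 2-fold either way, and their median difference was 0.03, or 0.15 with scaling on reads outside immunoglobulin genes. Sec61b of the protein channel, the highest of these in mean FPKM, was at 235 FPKM in PDR and 332 FPKM in SKYD, and the largest differences were those of Sec62 (-0.82) and Mcfd2 (-0.69).

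Mzb1 encodes an ER protein that helps IgM to assemble and be secreted (ENSMUSG00000024353, chromosome 18 from 35647266 to 35649367). Its level was 612 FPKM from 13002 reads in PDR and 116 FPKM from 2620 reads in SKYD. The ratio of 5.28 (interval 5.06 to 5.51) was the largest among the 8 members, and the log2(FPKM + 1) difference was 2.39. The ratio of Jchain to Mzb1 in FPKM was 4.06 in PDR and 20.7 in SKYD, so these genes for IgM secretion did not keep a common proportion.

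Tnfrsf17 encodes BCMA, a receptor of plasma cells for the survival factors APRIL and BAFF (ENSMUSG00000022496, chromosome 16 from 11313812 to 11320074). It was at 20.1 FPKM from 384 reads in PDR and 4.76 FPKM from 97 reads in SKYD. The ratio was 4.21 (interval 3.36 to 5.32), the widest interval among the 7 members above 1 FPKM in mean, and the log2(FPKM + 1) difference was 1.87. Tnfrsf13b encodes TACI, a receptor of the same ligands that B cells carry too (ENSMUSG00000010142, chromosome 11 from 61126755 to 61149372). Its level was 39.6 FPKM in PDR and 17.0 FPKM in SKYD, with a ratio of 2.33 (2.17 to 2.49) and a log2(FPKM + 1) difference of 1.17.

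A further receptor for BAFF, encoded by Tnfrsf13c and carried by mature B cells, differed more than either. It was at 80.6 FPKM in PDR and 5.22 FPKM in SKYD, a ratio of 15.5 (interval 13.6 to 17.6). In FPKM it stood at 4.02 times Tnfrsf17 in PDR and 1.10 times in SKYD, whereas Tnfrsf13b stood at 1.97 and 3.57 times. The ligands, named after their values were seen, were low: Tnfsf13 (APRIL) was at 2.94 FPKM in PDR and 5.40 FPKM in SKYD, and Tnfsf13b (BAFF) was at 1.04 and 0.629 FPKM. Of 14 survival ligands and receptors with a mean of at least 1 FPKM, 2 (Tnfrsf13c and Cxcr3) passed 2-fold with PDR higher and 0 with SKYD higher, with a median log2(FPKM + 1) difference of -0.09, which was 0.03 with scaling on reads outside immunoglobulin genes, 0.11 after rescaling to TPM and 0.08 with no filter.

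Sdc1 encodes syndecan-1, the heparan sulphate proteoglycan CD138 by which plasma cells are sorted, which epithelia also carry (ENSMUSG00000020592, chromosome 12 from 8771323 to 8793715). It was at 9.96 FPKM from 891 reads in PDR and 4.65 FPKM from 443 reads in SKYD. The ratio was 2.14 (interval 1.91 to 2.40). On the log2(FPKM + 1) scale the difference was 0.95, just under 2-fold, and it rose above 2-fold with a smaller pseudocount, after rescaling to TPM or with scaling on reads outside immunoglobulin genes, up to 1.10. The other syndecans lay near equality, with a median difference of -0.10 over 3 genes, which was 0.02 with scaling on reads outside immunoglobulin genes, and Sdc3, the most abundant, was at 13.5 FPKM in PDR and 14.6 FPKM in SKYD.

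**Figure D3:**
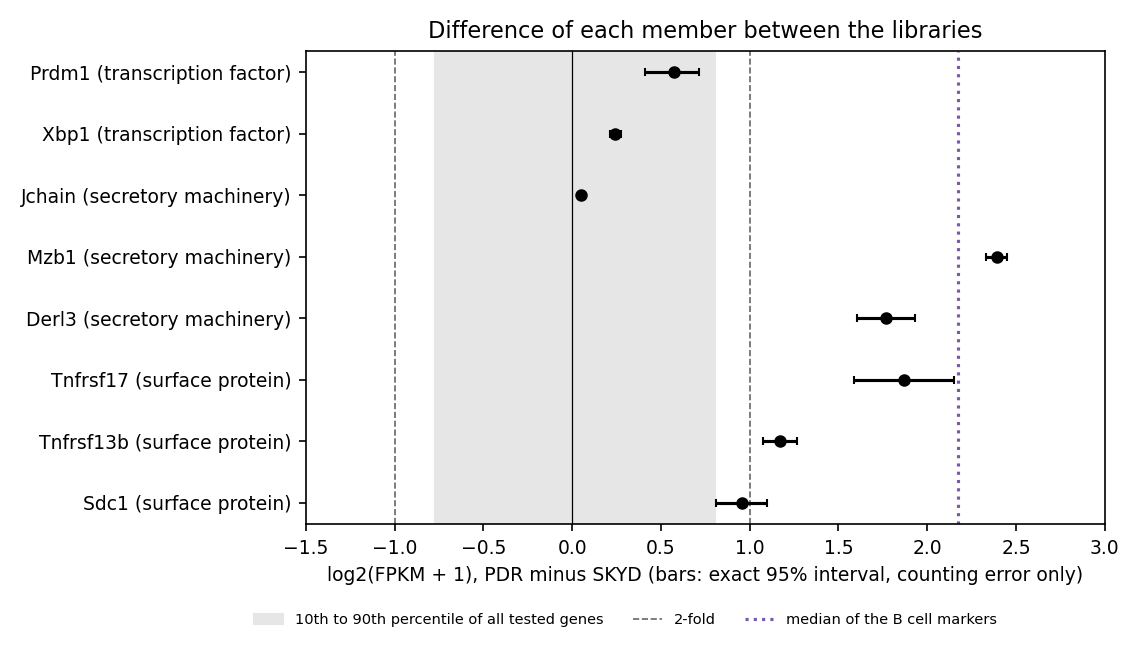
Difference of each member in log2(FPKM + 1), PDR minus SKYD, 1 pooled library each, with the exact 95% interval of the split of its reads, the 10th to 90th percentile of the 10399 tested genes (grey), 2-fold (dashed) and the median of the B cell markers (dotted). Jchain, Xbp1 and Prdm1 lie within the grey band, and Mzb1, at 2.39, is the only member to the right of the dotted line at 2.18.

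Other genes that mark plasma cells were mixed. Of 8 with a mean of at least 1 FPKM, 5 passed 2-fold with PDR higher and 1 with SKYD higher, with a median log2(FPKM + 1) difference of 1.18. Txndc5, a disulphide isomerase of the ER, was at 100.3 FPKM in PDR and 35.4 FPKM in SKYD, and Eaf2 was at 26.0 and 4.50 FPKM. Cd28, which T cells also carry, was the gene that went the other way, at 3.86 FPKM in PDR and 14.3 FPKM in SKYD.

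Markers of B cells moved with these members. All 10 B cell markers with a mean of at least 1 FPKM, of 11 listed, were more than 2-fold higher in PDR, with a median log2(FPKM + 1) difference of 2.18. Over all 11 listed, the summed level was 1826 FPKM in PDR and 417 FPKM in SKYD. Cd79b was the highest in mean FPKM, at 802 and 168 FPKM, and none of the 11 was at 0 reads. Relative to that median 7 of the 8 members had values from -2.13 (Jchain) to -0.31 (Tnfrsf17) on the log2 scale, and Mzb1 was 0.21 above it. The part of B cells in the members' differences was not tested.

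Against Cd79a, a signalling chain of the B cell receptor at 582 FPKM in PDR and 178 FPKM in SKYD, the members kept different proportions. Jchain stood at 4.27 times Cd79a in FPKM in PDR and 13.5 times in SKYD, and Xbp1 at 0.429 and 1.18 times. Derl3 stood at 0.0401 and 0.0345 times and Tnfrsf17 at 0.0345 and 0.0267 times, so that these ratios were 1.16 and 1.29 times as high in PDR. Tnfrsf13b stood at 0.0680 and 0.0954 times, Sdc1 at 0.0171 and 0.0261 times and Prdm1 at 0.00153 times in each library. Mzb1 stood at 1.05 times Cd79a in PDR and 0.650 times in SKYD. These proportions depend on the marker: the difference of Cd79a, 1.70, was below the B cell median of 2.18, and Cd79b had a ratio of FPKM of 4.77, above that of Derl3 (3.80) and Tnfrsf17 (4.21).

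Markers of other cells differed between the libraries too, and their part in the members' values was not tested. Of 12 macrophage markers, 5 were more than 2-fold higher in SKYD and 0 in PDR, with 24923 FPKM summed in PDR and 48228 FPKM in SKYD, mostly of Lyz2. None was at 0 reads, and Adgre1, which encodes F4/80, was at 87.3 and 93.3 FPKM. Of 6 plasmacytoid dendritic cell markers with a mean of at least 1 FPKM, 3 were more than 2-fold higher in SKYD and 0 in PDR, and the median log2(FPKM + 1) difference was -0.88, or -0.38 with scaling on reads outside immunoglobulin genes, -0.49 with no filter and -0.51 after rescaling to TPM. Siglech, a receptor that defines these cells, was at 0.491 FPKM in PDR and 11.4 FPKM in SKYD, and Klk1 had 0 reads and 1067 reads, at least 334-fold higher in SKYD. Tcf4 went the other way, at 1.46 FPKM in PDR and 0.967 FPKM in SKYD, as did Pacsin1 at 1.15 and 0.785 FPKM. The list summed to 1037 FPKM in PDR and 1117 FPKM in SKYD, of which Ly6d, its most abundant gene, made 1025 and 1045 FPKM.

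Hepatocyte markers also moved with the members, in that 7 of 8 were more than 2-fold higher in PDR, the exception being Trf. They summed to 2154 FPKM in PDR and 745 FPKM in SKYD, with Apoa2 the most abundant at 793 and 294 FPKM, and none was at 0 reads. Epithelial markers, of interest for Sdc1, were higher in SKYD in all 4 genes with a mean of at least 1 FPKM. Of these, 2 were more than 2-fold higher, but for Krt18 and Epcam the counting interval of the ratio included equality. The 5 listed markers summed to 25.1 FPKM in PDR and 50.6 FPKM in SKYD. Krt18, the highest of them in mean FPKM, was at 10.4 and 11.8 FPKM, Krt8 was at 4.26 and 17.8 FPKM, and Cdh1 had 0 reads in PDR and 53 reads in SKYD.

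**Figure D4:**
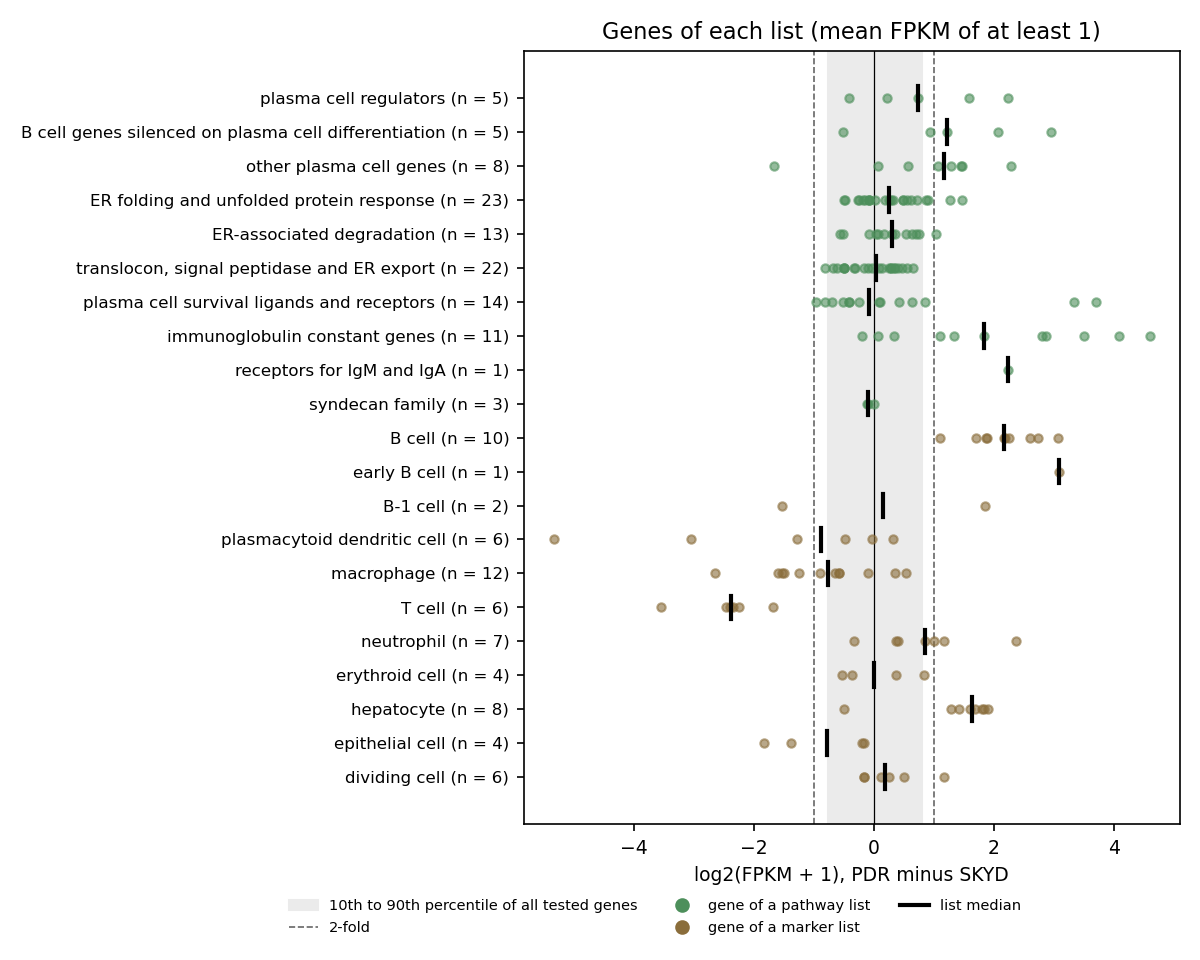
Difference in log2(FPKM + 1), PDR minus SKYD, of each gene with a mean of at least 1 FPKM in the pathway lists (green) and marker lists (brown), with list medians (black bars), 2-fold (dashed) and the 10th to 90th percentile of the 10399 tested genes (grey). B cell, hepatocyte and immunoglobulin constant genes lie mainly to the right, T cell genes to the left, and the ER lists around 0.

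The protein-coding genes nearest to each member in log2(FPKM + 1) over the 2 libraries were H2-Ab1 and Ctss for Jchain (distances 0.18 and 0.19), Aldoa and H2-DMa for Xbp1 (0.07 and 0.08), and Apoa1 and Cd79a for Mzb1 (0.61 and 0.62). For Derl3 they were Gstt1 and Cyp2c70 (0.09 and 0.11), for Tnfrsf17 H2-Q10 and Car3 (0.10 and 0.11), and for Tnfrsf13b Fam69a and Spaca9 (0.06 and 0.08). Sdc1 was nearest to Mup21 and Lrrc40 (0.06 and 0.07) and Prdm1 to Lurap1l and Syn1 (0.02 and 0.02). With 2 libraries, any gene of like level and ratio is near.

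Sharing of reads with other genes was checked for each member. In the deposited table only Tnfrsf13b overlapped another gene, the processed pseudogene Gm12269, which had 0 reads in each library. Windows of 64 bases were shared with transcripts of another gene for 3 of the 8 members. Sdc1 shared 16 windows with the pseudogene Gm14724 and 10 with Gm16407, each at 0 reads, Jchain shared 6 with Smchd1, at 417 reads in PDR and 468 in SKYD, and Mzb1 shared 633 with the gene model SPATA24, for which no value was used here, so that the level of Mzb1 is uncertain where that model was counted. FPKM also depends on the length used, which was 2517 bases for Jchain against 1393 for its coding transcript in GENCODE M21, so that levels between genes are less certain than ratios between libraries.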

How the data were processed

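RNA of sorted aortic cells was measured in 1 pooled library of the PDR group and 1 of the SKYD group. According to the submitters' processing notes, reads were aligned with TopHat 2.0.9 and Bowtie2 2.0.6 and counted with HTSeq 0.6.1, and the authors deposited FPKM for 54532 genes. The strand setting is not given in the sources used here. The notes name mm9, but the positions are those of GRCm38: 98.3% of 54494 genes shared with GENCODE M21 had the same start and end. Among the members this held for 7, and the start of Mzb1 differed.

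FPKM times gene length gave whole multiples of 1 read within 0.01 of a read for 100% of the values above 0 in each library. Differences were taken as log2(FPKM + 1), PDR minus SKYD, where the mean FPKM was at least 1. Ratios have exact (Clopper-Pearson) 95% intervals from the split of a gene's reads and levels exact Poisson intervals, which cover counting error only. A gene at 0 was given a floor of 3 reads for lower bounds. A second Ddit3 row without reads was left out of the lists. The recovery of reads and the 2-fold calls were tested on simulated data.

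Members and lists were chosen with earlier results of these data known. Besides the members, the text names from each of 10 pathway and 11 marker lists the 3 genes with the highest mean FPKM and the 2 with the largest difference, list markers, and the 2 nearest genes of each member. A gene this rule would name is not reported here. Alternatives were other pseudocounts, filters, scalings, protein-coding genes only and a 4-fold threshold. The software was matplotlib 3.10.9, scipy 1.17.1, pandas 2.3.3 and numpy 2.4.6 under Python 3.11.15.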

Additional observations from a re-analysis of the deposited data

How the results depend on the processing

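Under 10 alternatives, 0 members were more than 2-fold higher in SKYD. The count higher in PDR was 4 or 5 under 9 of them and 1 (Mzb1) with a 4-fold threshold, and 4 in the main comparison, while the share of all tested genes ran from 3.94% (no filter) to 10.5% (pseudocount of 0.01) and was 1.87% at 4-fold. The median difference of the members, 1.17, was 1.30 with scaling on reads outside immunoglobulin genes. This scaling moved the median of all tested genes to 0.11. It put summed reads in place of the size behind the FPKM, so its shift also holds that change. With no filter on FPKM, which adds Prdm1, the median of the members was 1.06. Under the other 7 it lay between 1.17 and 1.22. Of these, protein-coding genes only and a mean FPKM of at least 5 could not move it, since every tested member passes both. Of 48 differences of single members under 6 scalings and pseudocounts, 0 changed sign and 40 stayed within the counting interval. A pseudocount cannot change the sign of a difference, so only the scalings could have done so. Prdm1 moved farthest, from 0.57 to 1.68 with a pseudocount of 0.01. Of 188 list medians, 5 changed sign, of which 1 had been past 2-fold. This was the median of the early B cell list, 3.09 from Vpreb3 alone, which was 0.88 after rescaling to TPM and -0.55 with no filter, where genes below 1 FPKM in mean were counted too. Depth limited Prdm1 with 38 reads and Tnfrsf17 with 97 reads in SKYD. How far mice of a group differ is unknown. No paired analysis was possible because each group is 1 library and no difference comes from a test.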

Other observations

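Lists not described above also differed between the libraries. All 6 T cell markers were more than 2-fold higher in SKYD, with a median log2(FPKM + 1) difference of -2.38, and their sum was 138 FPKM in PDR and 710.5 FPKM in SKYD, with Cd3d the highest in mean FPKM. Cd8a was at 7.81 FPKM in PDR and 103 FPKM in SKYD. Of 7 neutrophil markers, 2 passed 2-fold with PDR higher and 0 with SKYD higher, with a median of 0.85, and S100a9, the most abundant, was at 2209 and 1677 FPKM. Elane, a protease of granulocyte precursors, was at 34.1 FPKM in PDR and 5.81 FPKM in SKYD. The 4 erythroid markers had a median of 0.01, or 0.14 with scaling on reads outside immunoglobulin genes, and 0 were past 2-fold, with Hba-a1 at 10807 and 15651 FPKM.

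Among early B cell markers Vpreb3 was at 33.0 FPKM in PDR and 2.98 FPKM in SKYD, while Akap12 went the other way with 16 and 220 reads (0.105 and 1.36 FPKM), Vpreb1 had 2 and 24 reads, Igll1 had 0 and 15 reads and Vpreb2 had 0 reads in each. Of the B-1 cell markers, Zbtb32 was at 18.2 FPKM in PDR and 4.31 FPKM in SKYD, and Cd5, which T cells carry too, was at 5.23 and 17.1 FPKM. Of 6 markers of dividing cells, 1 (Ccnb1, at 54.4 and 23.7 FPKM) was more than 2-fold higher in PDR and 0 in SKYD, with a median difference of 0.18, or 0.30 with scaling on reads outside immunoglobulin genes.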
